A study of Mus musculus with 3 samples.

Results

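The genes described here are 9 secreted antagonists of Wnt signaling: Sost, Dkk1, Dkk2, Dkk3, Sfrp1, Sfrp2, Sfrp4, Frzb and Wif1. They were picked by symbol from the 26970 genes of the deposited table, and all 9 were found. RNA was sequenced from mandibular condyles of mice at 4 months of age, dissected so that the cartilage and the subchondral bone stayed joined. The 3 groups were wild-type mice (WT, Dspp +/+), Dspp+/- mice, which carry a global knockout of 1 allele of Dspp (dentin sialophosphoprotein, the precursor of matrix proteins of dentin and bone), and Dspp-/- mice, which carry it on both alleles, all in the C57BL/6 background. The table holds 1 value per gene and genotype, taken here as 1 library each. The labels also speak of triplicate samples at the library step, and whether reads of several libraries were merged into a value was not tested. The WT and the Dspp+/- sample each pooled 3 animals, and how many animals went into the Dspp-/- sample is not stated in the methods. The study also describes severe tooth defects in Dspp-/- mice and no marked ones in Dspp+/- mice. With 1 library per genotype there was no replicate check, no test between genotypes was possible, and no p-value is given. Each difference below is a difference between single pooled libraries.

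In the canonical pathway, Wnt proteins bind a Frizzled receptor together with the co-receptor LRP5 or LRP6, which keeps beta-catenin from being degraded and lets it act with TCF/LEF factors on target genes. In bone this signal favors osteoblast formation, and in cartilage it is held in check in part by secreted antagonists. The antagonists fall into groups by what they bind. Sclerostin (Sost) and the Dickkopf proteins Dkk1 and Dkk2 bind the LRP co-receptors. Wnt inhibitory factor 1 (Wif1) and the secreted Frizzled-related proteins (Sfrp1, Sfrp2, Sfrp4 and Frzb) bind Wnt proteins. Dkk3 is a divergent Dickkopf protein whose part in Wnt signaling is less settled.

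The promoters of 3 members are shown because Sost and Wif1 were the most abundant members and differed in opposite order between the mutant libraries, and because Dkk1 is known as a target of Wnt signaling as well as an antagonist. Each line gives the 250 bases before the start of the gene, 5′ to 3′ on the strand of the gene, from RefSeq on GRCm38.p6. Capitals mark the TCF/LEF heptamer, CTTTG followed by 2 bases that are each A or T, searched on both strands.
Sost, chr11:101967016-101967265, minus strand: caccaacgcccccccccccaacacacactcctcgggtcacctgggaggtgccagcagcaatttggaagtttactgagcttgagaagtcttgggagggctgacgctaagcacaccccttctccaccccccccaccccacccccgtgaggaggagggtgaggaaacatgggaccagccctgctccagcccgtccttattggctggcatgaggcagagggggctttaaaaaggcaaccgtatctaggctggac
Dkk1, chr19:30549497-30549746, minus strand: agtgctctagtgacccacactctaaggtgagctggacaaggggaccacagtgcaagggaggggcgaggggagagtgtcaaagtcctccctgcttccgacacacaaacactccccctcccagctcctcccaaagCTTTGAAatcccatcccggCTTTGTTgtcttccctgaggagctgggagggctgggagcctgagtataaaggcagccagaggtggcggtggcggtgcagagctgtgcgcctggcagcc
Wif1, chr10:121033754-121034003, plus strand: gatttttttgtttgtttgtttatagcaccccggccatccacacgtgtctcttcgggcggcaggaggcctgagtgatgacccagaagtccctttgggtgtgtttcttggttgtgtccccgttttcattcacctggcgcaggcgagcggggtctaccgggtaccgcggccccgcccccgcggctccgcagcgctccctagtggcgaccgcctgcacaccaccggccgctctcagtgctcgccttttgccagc
The promoter table held 6 of the 9 members (these 3, Dkk2, Sfrp2 and Frzb). Dkk1 was the only member of the 6 with a TCF/LEF heptamer in this window, and it had 2, which began 117 and 98 bases before the start. Of 32851 promoters of the same length, 14.8% held at least 1. A match of letters is a description of the sequence, and the other 5 windows lack only these letters. The 6 windows were 55.6% to 64.4% G and C, against a median of 52.4% over all promoters.

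The deposited values were read as FPKM, fragments divided by gene length and by library size, so levels can be compared between genes. FPKM times exon length gave whole fragments, within 0.05 of a fragment, for 98.6% of the genes under 100 fragments in each library. Recovered depth came to 20241576 fragments for WT, 23613620 for Dspp+/- and 22253158 for Dspp-/-. Intervals in parentheses are 95% Clopper-Pearson intervals computed from these fragments. These intervals hold counting error alone, not the variation among mice. The mitochondrial share of the FPKM sum was 25.02% for WT, 36.9% for Dspp+/- and 37.3% for Dspp-/-, which FPKM does not adjust for. Xist, the RNA of the inactive X chromosome of female cells, had 2 WT fragments, 12084 Dspp+/- fragments and 10563 Dspp-/- fragments, so the sex of the pooled animals and the genotype cannot be told apart. The targeted gene, Dspp, was not analysed here, and the labels stand without that check. The labelled tissue had its defining genes in each library, from 94.2 to 761 FPKM for the cartilage collagen gene Col2a1 and from 386 to 1353 FPKM for the bone gene Bglap (osteocalcin).

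In the WT condyle, Sost had the highest level of the 9 members with 272 FPKM, followed by Wif1 with 234 FPKM. Their levels exceeded 99.3% (Sost) and 99.2% (Wif1) of the 13026 genes whose mean over the 3 libraries was 1 FPKM or more. Dkk3 (53.3 FPKM), Sfrp2 (39.8 FPKM) and Dkk1 (38.5 FPKM) formed the middle of the range. Within the WT library the Dkk1 level was 0.966 times that of Sfrp2 (0.905 to 1.03), so these neighbors did not differ beyond counting error. Sfrp4 (13.7 FPKM), Frzb (10.7 FPKM) and Sfrp1 (9.44 FPKM) were lower, and Dkk2 was lowest with 2.15 FPKM, which rests on 161 fragments. The order changed at its top in Dspp-/-, where Wif1 (126 FPKM) stood above Sost (111 FPKM). It also changed further down in Dspp+/-, where Sfrp1 (7.50 FPKM) stood above Sfrp4 (6.30 FPKM) and Frzb (1.83 FPKM), and in Dspp-/-, where Sfrp1 stood above Frzb.

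**Figure D1:**
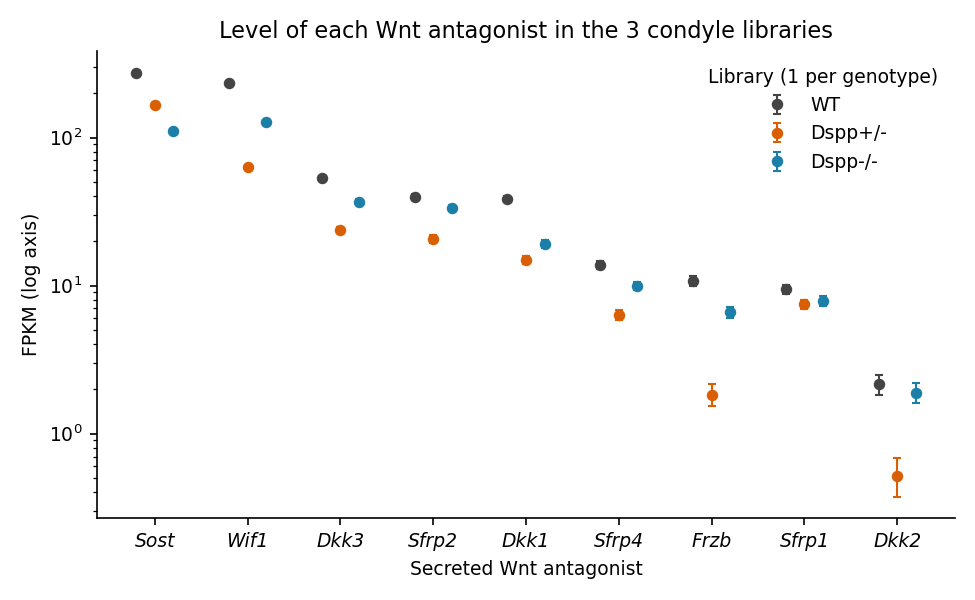
FPKM of the 9 Wnt antagonists on a log axis, with 1 point per library (WT, Dspp+/-, Dspp-/-) and bars for the 95% interval of the fragment count. The WT point is the highest for every gene, and the Dspp+/- point is the lowest for every gene but Sost, for which it is Dspp-/-.

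All 9 members had lower FPKM in both mutant libraries than in WT. The differences were larger in Dspp+/- for 8 of them and larger in Dspp-/- for Sost. Of all genes with a mean of 1 FPKM or more, 43.7% were below WT in Dspp+/- and 49.3% in Dspp-/-. Lower in Dspp+/- than in Dspp-/- were 44.7% of them. On the scale of log2(FPKM + 1), which understates differences of genes with low FPKM, the median difference of the 9 members from WT was -1.06 in Dspp+/- and -0.52 in Dspp-/-. Over the 13026 genes that passed the filter on the mean, as all 9 members did, the medians were 0.058 and 0.0070. At least 2-fold lower on this scale were 6 of 9 members in Dspp+/- (Frzb, Wif1, Dkk1, Dkk3, Dkk2 and Sfrp4) and 1 of 9 in Dspp-/- (Sost). The background was 2.86% of all genes at least 2-fold lower in Dspp+/- and 1.37% in Dspp-/-. No member was at least 2-fold higher in either library, against 4.88% of all genes in Dspp+/- and 4.05% in Dspp-/-. Both comparisons use the same WT library. Fewer cells of a type and less RNA per cell cannot be told apart in these bulk samples. The calls nearest to the threshold were those of Sfrp4 in Dspp+/- (log2 difference -1.01) and Dkk2 in Dspp+/- (-1.06) on the lower side, and Dkk1 in Dspp-/- (-0.97) and Sfrp2 in Dspp+/- (-0.91) on the other.

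**Figure D2:**
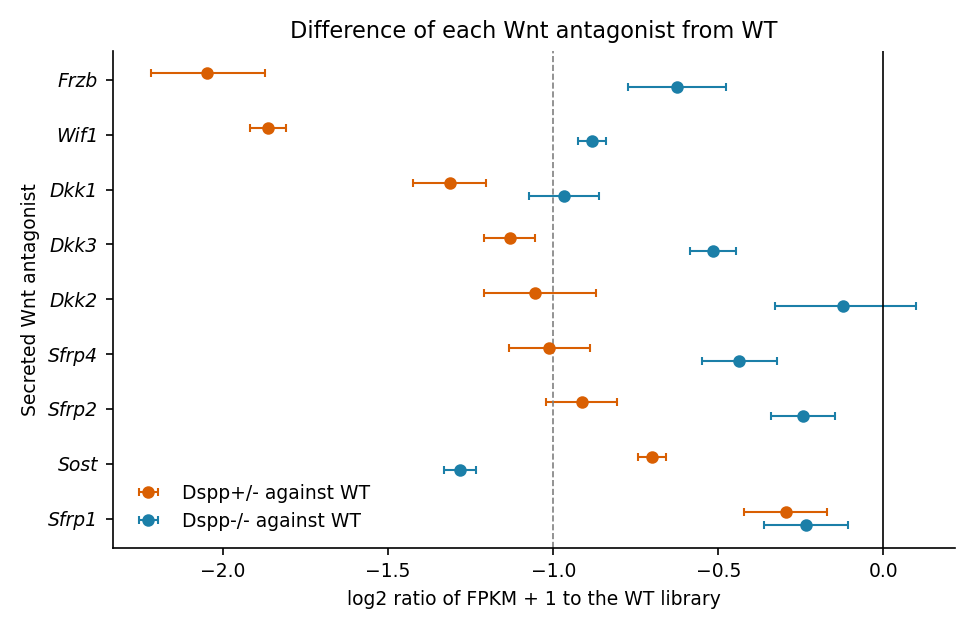
Log2 ratio of FPKM + 1 to the WT library for each member in Dspp+/- and Dspp-/-, with bars for the 95% counting interval and a dashed line at 2-fold lower. In Dspp+/- the points run from -2.05 for Frzb to -0.30 for Sfrp1, and Sost is the only member whose Dspp-/- point lies to the left of its Dspp+/- point.

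Sost, the product of mature osteocytes, lies on chromosome 11 from 101853284 to 101857841 in the deposited table. It had 272 FPKM in the WT library, 167 FPKM with Dspp+/- and 111 FPKM with Dspp-/-. The order was therefore WT, then Dspp+/-, then Dspp-/-, which no other member showed. The fold to WT was 0.614 (0.597 to 0.632) for Dspp+/- and 0.409 (0.396 to 0.423) for Dspp-/-. Between the mutant libraries Sost was 1.501-fold higher in Dspp+/- than in Dspp-/- (1.45 to 1.55). Of the summed FPKM of the 9 members, Sost held 40.4% (WT), 54.6% (Dspp+/-) and 31.5% (Dspp-/-).

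The level of Sost was also set against other genes of the same library, which removes library size and mitochondrial content from the value. Compared between libraries, such a ratio restates the folds to WT of both genes and is not a separate result. The ratio of Sost to Wif1 was 1.16 in WT (1.13 to 1.20), 2.63 in Dspp+/- (2.53 to 2.74) and 0.881 in Dspp-/- (0.849 to 0.913). The ratio of Sost was highest in Dspp+/- against 7 of the 8 other members. The exception was Sfrp1, against which it was 28.8 in WT (26.9 to 31.0), 22.3 in Dspp+/- (20.7 to 24.0) and 14.1 in Dspp-/- (13.1 to 15.3). In Dspp-/- it was below the WT ratio for all 8. The osteocyte markers gave an order that depended on the marker. Against Dmp1, a matrix phosphoprotein of osteocytes, the ratio was 1.43 in WT (1.39 to 1.47), 2.37 in Dspp+/- (2.29 to 2.46) and 1.40 in Dspp-/- (1.35 to 1.46). The WT and Dspp-/- intervals overlap, so Sost and Dmp1 were lower by a like factor there. Against Phex, a regulator of phosphate handling in osteocytes, the ratio was 5.19 in WT, 8.90 in Dspp+/- and 3.24 in Dspp-/-. Against Mepe, another matrix phosphoprotein, it was 0.738, 1.56 and 0.896 in the same order of libraries. The ratio to each of these 3 markers was highest in Dspp+/-, while that of Dspp-/- was below WT for Phex and above WT for Mepe.

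**Figure D3:**
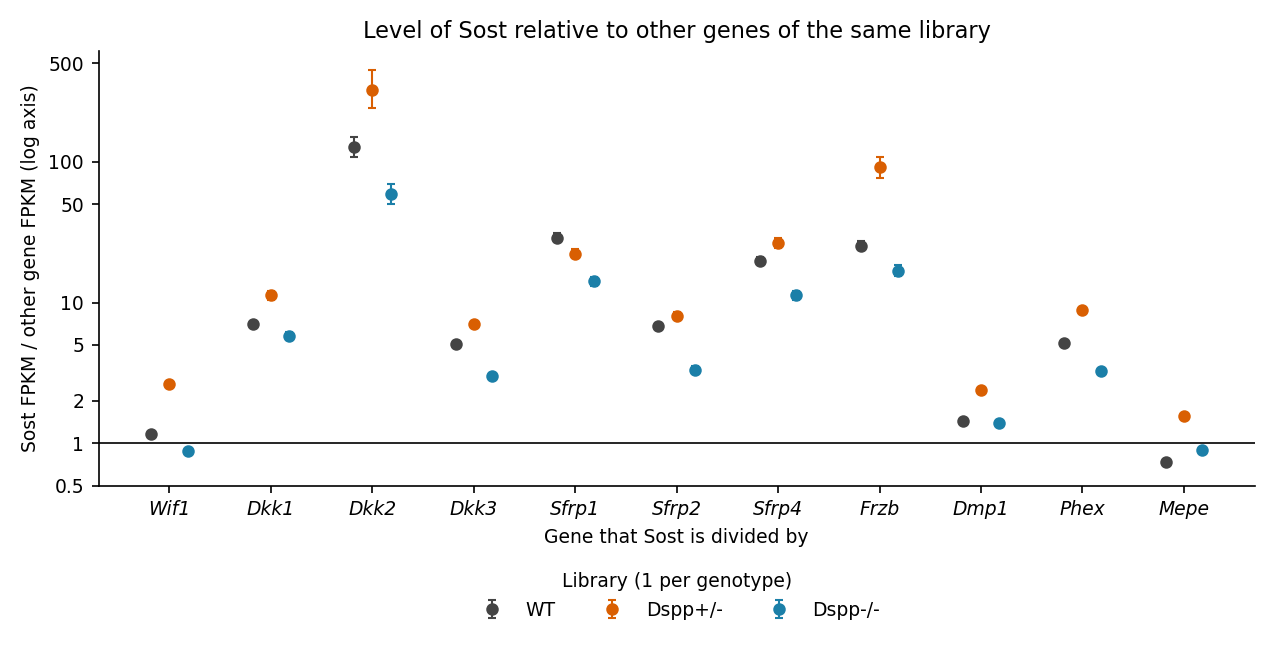
FPKM of Sost divided by that of the 8 other Wnt antagonists and of 3 osteocyte markers (Dmp1, Phex, Mepe) of the same library, on a log axis, with bars for the 95% counting interval and a line at 1. The Dspp+/- point is the highest of the 3 libraries for every gene but Sfrp1, for which the WT point is.

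Dkk1, an inhibitor that binds LRP6 and, with it, the Kremen receptors, lies on chromosome 19 from 30523263 to 30527065. It had 38.5 FPKM in WT, against 14.9 in Dspp+/- and 19.2 in Dspp-/-. The fold to WT was 0.387 (0.356 to 0.419) for Dspp+/- and 0.499 (0.462 to 0.538) for Dspp-/-. Of the 8 members that were lower in Dspp+/- than in Dspp-/-, Dkk1 and Sfrp1 differed least between the mutant libraries, with folds of 0.775 (0.707 to 0.850) for Dkk1 and 0.952 (0.861 to 1.05) for Sfrp1. Only the interval of Sfrp1 holds 1. Of the 6 members with a promoter sequence, Dkk1 alone had TCF/LEF heptamers in the window above, and a link to its levels was not tested.

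Dkk2, which acts as an antagonist or as an activator depending on the co-receptors present, lies on chromosome 3 from 131791053 to 131886065. It had 2.15 FPKM in the WT library, 0.514 FPKM with Dspp+/- and 1.89 FPKM with Dspp-/-, from 161, 45 and 156 fragments. The WT and Dspp-/- libraries were thus close and the Dspp+/- library was low. The fold to WT was 0.240 (0.168 to 0.335) in Dspp+/-. In Dspp-/- it was 0.881 with an interval from 0.703 to 1.11, so a difference from WT was not detectable at this depth. Dkk3 (chromosome 7, 111715224 to 111758264) stood at 53.3 FPKM in WT, against 23.8 in Dspp+/- and 37.0 in Dspp-/-. Its fold to WT was 0.446 (0.422 to 0.472) for Dspp+/- and 0.694 (0.660 to 0.729) for Dspp-/-. Dkk1, Dkk2 and Dkk3 thus each had their lowest value in Dspp+/-.

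Wif1, which holds Wnt proteins away from their receptors, lies on chromosome 10 from 120869865 to 120936555. It had 234 FPKM in the WT library, 63.5 FPKM with Dspp+/- and 126 FPKM with Dspp-/-. The Dspp-/- level was about midway between the others on a log scale, and the fold to WT was 0.272 (0.262 to 0.282) for Dspp+/- and 0.541 (0.525 to 0.557) for Dspp-/-. Among the genes of the lists compared below, Col1a1, the main collagen gene of bone, had differences from WT nearest to those of Wif1. A nearly constant ratio of this pair restates that closeness in the same libraries and is not a separate result. It is also not particular to Col1a1, because the bone gene Bglap and the cartilage gene Col11a1 were almost as near. The ratio of Wif1 to Col1a1 was 0.0350 in WT (0.0344 to 0.0357), 0.0370 in Dspp+/- (0.0358 to 0.0382) and 0.0350 in Dspp-/- (0.0342 to 0.0359). Both genes spanned a range of nearly 4-fold over the libraries, while their ratio moved by a small part of that, with a Dspp+/- interval just above that of WT.

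Frzb, the Frizzled-related protein also known as Sfrp3 and described first from cartilage, lies on chromosome 2 from 80242314 to 80277969. It had 10.7 FPKM in WT, against 1.83 in Dspp+/- and 6.59 in Dspp-/-, from 702, 140 and 475 fragments. Its fold of 0.171 to WT (0.142 to 0.205) in Dspp+/- was the smallest of the 9 members in either library, and the fold in Dspp-/- was 0.615 (0.547 to 0.692). Frzb was the 1 member at least 2-fold lower in Dspp+/- than in Dspp-/- on the log2(FPKM + 1) scale (-1.42), a difference that 0.852% of all genes reached. This count depends on the setting: Wif1 (-0.98, fold 0.502, 0.483 to 0.523) joined Frzb under each of 5 other scalings, and Dkk2 joined with a pseudocount of 0.1. The fold with no pseudocount was 0.272 (0.191 to 0.381) for Dkk2 and 0.278 (0.228 to 0.336) for Frzb, and with a pseudocount of 5 no member reached 2-fold. No member was at least 2-fold higher in that comparison, against 0.798% of all genes. Set against cartilage genes of the same library, the ratio of Frzb to Acan, the main proteoglycan of cartilage, was 0.127 in WT (0.118 to 0.138), 0.0900 in Dspp+/- (0.0755 to 0.107) and 0.163 in Dspp-/- (0.148 to 0.179). Its ratio to Col2a1, the main collagen of cartilage, was 0.0141 in WT (0.0131 to 0.0152), 0.0194 in Dspp+/- (0.0163 to 0.0229) and 0.0214 in Dspp-/- (0.0195 to 0.0234). In Dspp+/- Frzb was therefore low against Acan and high against Col2a1 when compared with WT.

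The other Frizzled-related proteins differed less. Sfrp4, on chromosome 13 from 19807274 to 19817164, had 13.7 FPKM in the WT library, 6.30 FPKM with Dspp+/- and 9.89 FPKM with Dspp-/-, with folds to WT of 0.459 (0.416 to 0.506) and 0.720 (0.660 to 0.786). Sfrp2, on chromosome 3 from 83673628 to 83681623, measured 39.8, 20.7 and 33.5 FPKM (WT, Dspp+/-, Dspp-/-), with folds of 0.519 (0.480 to 0.561) and 0.841 (0.785 to 0.901). An antisense gene of GENCODE M21 covers 16.1% of the exon bases of Sfrp2, and reads of the pair cannot be told apart without strand. Sfrp1, on chromosome 8 from 23901518 to 23939648, had 9.44, 7.50 and 7.87 FPKM, with folds of 0.795 (0.720 to 0.877) and 0.834 (0.756 to 0.922). Sfrp1 was the member closest to its WT level in Dspp+/-, and its mutant libraries did not differ beyond counting error. No 100-base sequence of any of the 9 members occurred, in the same orientation, in the transcripts of another gene of GENCODE M21. Reverse complements were not searched.

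The other genes of the Wnt pathway were taken from lists written by hand, and those that passed the same filter (mean FPKM of 1 or more) were counted. Counts of genes at least 2-fold lower or higher are on the log2(FPKM + 1) scale, which understates differences of genes with low FPKM. Among the Wnt ligands 8 of 19 passed, and 3 of the 8 were at least 2-fold lower in Dspp+/- and 2 in Dspp-/-. Wnt5b, the most abundant ligand in WT and a ligand of growing cartilage, had 19.8 FPKM in WT, against 8.09 in Dspp+/- and 8.31 in Dspp-/-. Wnt1, a ligand known for its effect on bone mass, had 3.55, 0.944 and 1.15 FPKM, and Wnt10b, named after the values were seen because it completes the count, had 9.89, 4.42 and 5.77 FPKM. Wnt4 (fold 0.496, 0.439 to 0.560) and Wnt16 (0.487, 0.401 to 0.590) were past 2-fold lower in Dspp+/- only with no pseudocount. The medians of the ligands were -0.80 in Dspp+/- and -0.41 in Dspp-/-. Below WT were 6 of the 8 ligands in Dspp+/- and 7 of 8 in Dspp-/-. The exceptions in Dspp+/-, named after their values were seen, were Wnt9a (3.19 FPKM in WT and 4.22 in Dspp+/-, fold 1.32, 1.11 to 1.58) and Wnt11 (1.33 and 1.71 FPKM, fold 1.29, 1.01 to 1.65). Their folds in Dspp-/- were 1.07 (0.885 to 1.285) for Wnt9a and 0.926 (0.706 to 1.21) for Wnt11, with intervals that hold 1.

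The receptors of the pathway were nearer to their WT levels. Of 13 Frizzled, LRP, Ror and Ryk genes that passed the filter, 0 were at least 2-fold lower in Dspp+/- and 1 was in Dspp-/-, which was Fzd9 (9.76 FPKM in WT and 4.29 in Dspp-/-). Their medians were -0.27 and -0.28. Ror2 did not reach 2-fold lower on the log2(FPKM + 1) scale (-0.89 in Dspp+/-), though its fold there with no pseudocount was 0.456 (0.390 to 0.532). Lrp5 had 20.3 FPKM in the WT library, 15.5 FPKM with Dspp+/- and 15.2 FPKM with Dspp-/-. Lrp6 had 10.9, 10.4 and 10.8 FPKM, and its intervals of the fold to WT (0.913 to 1.01 and 0.946 to 1.04) hold 1. Lrp6 was thus nearer to its WT level than Lrp5. Ryk, the most abundant receptor of the list, had 34.8, 22.4 and 27.2 FPKM. Lrp4, which presents sclerostin to LRP5 and LRP6, had 23.9, 13.3 and 15.6 FPKM. Kremen1, the partner of Dkk1, had 17.5, 13.9 and 12.5 FPKM, and Kremen2 had at most 4 fragments in any library.

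Among the R-spondins and their receptors, which amplify Wnt signals, 3 of 9 genes passed the filter, and Lgr6 (11.5 FPKM in WT, against 5.06 in Dspp+/- and 5.73 in Dspp-/-) was at least 2-fold lower in Dspp+/-. Lgr4, the most abundant of them, had 11.7, 7.54 and 9.64 FPKM. Of 12 intracellular components and 11 transcription genes that passed, 0 were at least 2-fold lower or higher in either library by log2(FPKM + 1). With no pseudocount, the transcription genes Tle2 (fold 0.469, 0.411 to 0.534), Tcf7l2 (0.484, 0.427 to 0.547) and Tcf7 (0.494, 0.416 to 0.589) were past 2-fold lower in Dspp+/-. The intracellular components had medians of -0.040 and -0.11 and the transcription genes -0.21 and -0.26. Ctnnb1, the beta-catenin gene, had 143 FPKM in the WT library, 90.2 FPKM with Dspp+/- and 106 FPKM with Dspp-/-. Pygo2, a partner of beta-catenin, had 12.2, 12.3 and 9.70 FPKM.

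Of the feedback and target genes 11 of 18 passed the filter, and 10 of the 11 were lower than WT in each mutant library. Their medians were -0.70 in Dspp+/- and -0.41 in Dspp-/-. Axin2, a feedback inhibitor that Wnt signaling induces, had 2.81 FPKM in WT, against 1.35 in Dspp+/- and 1.86 in Dspp-/-, with folds of 0.479 (0.396 to 0.578) and 0.663 (0.556 to 0.788). Ccn4, a secreted matricellular protein, had 69.8, 19.9 and 45.4 FPKM. Notum, an enzyme that removes the lipid of Wnt proteins and thereby inactivates them, had 3.47, 0.914 and 1.16 FPKM. Notum was also the 1 gene at least 2-fold lower in both mutant libraries among the 3 of 10 other antagonists that passed the filter, a list that shares it with the target genes. Igfbp4, a growth factor binding protein that can also block Frizzled and the most abundant of those 10, had 58.8, 51.6 and 50.9 FPKM. The genes Wnt3, Wnt3a, Wnt7a, Dkk4 and Sp5 of these lists were not analysed here.

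**Figure D4:**
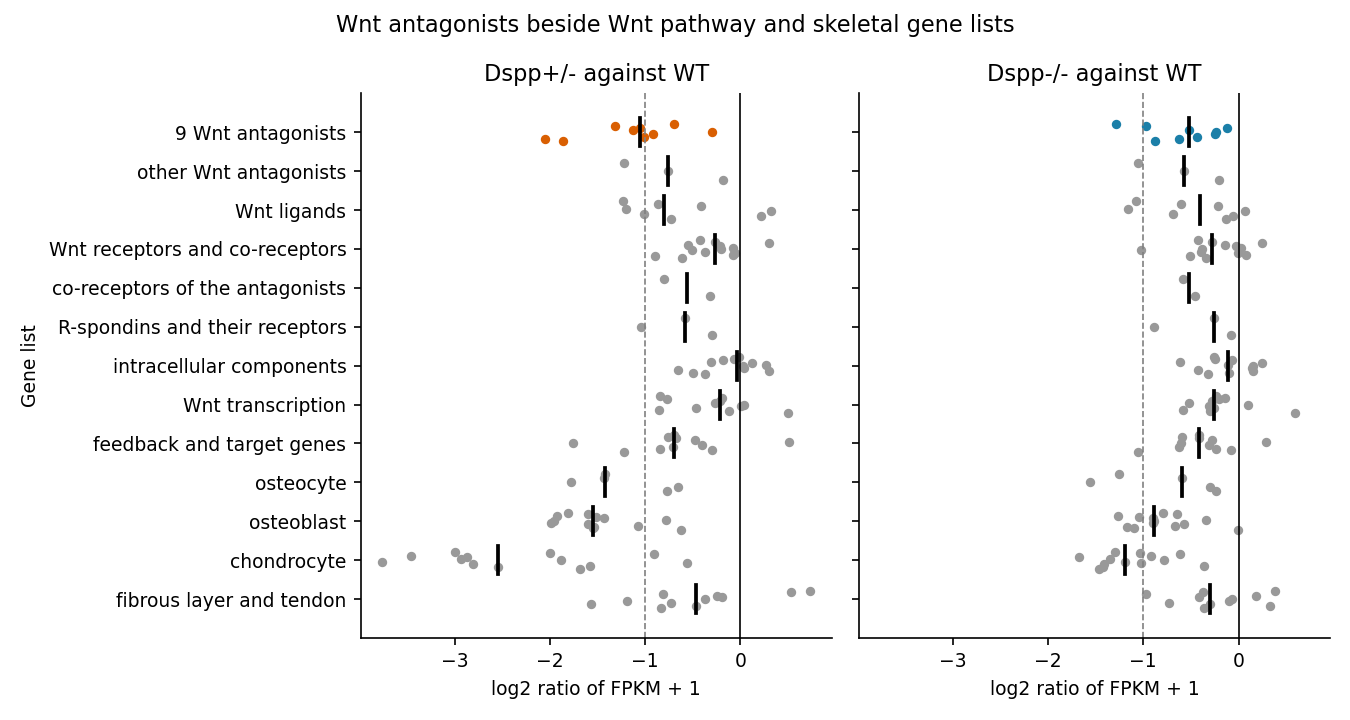
Log2 ratio of FPKM + 1 to WT in Dspp+/- (left) and Dspp-/- (right), with 1 point per gene that passed the filter on the mean, a black bar at the median of each list and a dashed line at 2-fold lower. The median of the 9 Wnt antagonists lies between those of most Wnt pathway lists and those of the osteocyte, osteoblast and chondrocyte lists.

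Transcripts on the osteocyte, osteoblast and chondrocyte lists were lower as well, and those of the fibrous layer and tendon list differed in direction. The osteocyte list without Sost had 5 of 6 genes that passed the filter, all lower than WT in both mutant libraries, with medians of -1.42 in Dspp+/- and -0.59 in Dspp-/-. The log2 difference of Sost lay 0.72 above that median in Dspp+/- and 0.69 below it in Dspp-/-. The osteoblast list had medians of -1.55 and -0.89 over 13 genes, of which 11 were at least 2-fold lower in Dspp+/- and 4 in Dspp-/-. Its most abundant genes, Col1a1, Col1a2 and Spp1, had 6675, 2780 and 2474 FPKM in WT. The chondrocyte list had medians of -2.54 and -1.19 over 13 of 14 genes. The fibrous layer and tendon list had medians of -0.47 and -0.30 over 11 genes, of which 2 were at least 2-fold lower in Dspp+/- and 9 were below WT. Above WT there, and named after their values were seen, were Prg4 (lubricin), with a fold of 1.68 (1.61 to 1.74), and Cilp, with 1.45 (1.41 to 1.49).

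Against the osteoblast median, Wif1 and Frzb were lower in Dspp+/- and the other 7 members were higher, by their log2 differences of -1.86 and -2.05 beside -1.55. In Dspp-/- the members below that median were instead Sost, by 0.40, and Dkk1, by 0.080, while Frzb lay 0.26 above it and Wif1 at about the median (-0.88 beside -0.89). Against the chondrocyte median, all 9 members were higher in Dspp+/-, and in Dspp-/- 8 were higher and Sost was 0.09 lower. The summed FPKM of the osteocyte, osteoblast and chondrocyte lists moved with the members. It went from 627 (WT) to 205 (Dspp+/-) and 250 (Dspp-/-) for the osteocyte list, and from 16138 to 4518 and 9021 for the osteoblast list. For the chondrocyte list it went from 1804 to 499 and 812, and the sum of the 9 members went from 674 to 306 and 354. No gene of these lists was at 0 in any library. The part of these transcripts in the differences of the members was not tested.

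Most genes of blood-forming cells moved the other way. All 10 of 10 erythroid genes and all 10 of 10 neutrophil genes were at least 2-fold higher than WT in both mutant libraries, with medians of 2.38 and 2.23 for the erythroid and 2.09 and 2.44 for the neutrophil list. Summed over the erythroid list, FPKM was 830, 3527 and 3360 (WT, Dspp+/-, Dspp-/-), and over the neutrophil list it was 594, 2678 and 3498. Both mutant libraries thus held more of these transcripts than WT. The B cell list had medians of 1.36 and 1.18 over 7 of 8 genes and sums of 22.3, 68.6 and 53.1 FPKM. The skeletal muscle list had medians of 0.25 and -0.26 over 10 genes, and its sums were 11944, 15681 and 12657 FPKM. Its genes were split in Dspp+/-, with 7 above WT and 3 below. At least 2-fold lower there were 2 of them, Myh4 (fold 0.147) and Actn3 (0.254). The adipocyte list had -0.14 and 1.22 over 7 of 8 genes (74.5, 79.4 and 154 FPKM), and the endothelial list 0.11 and 0.17 over 6 genes (124, 140 and 134 FPKM). Of the 7 adipocyte genes, 4 were below WT and 3 above in Dspp+/-, and all 7 were above in Dspp-/-. No gene of these lists was at 0 in any library. Their part in the differences of the members was not tested.

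For each member, the genes nearest to it were sought among 152 genes of these lists by the distance between the pairs of log2 differences from WT, over 2 comparisons that share the WT library. This is a description over 3 libraries. The nearest to Wif1 were Col1a1 (distance 0.0936), Bglap and Col11a1, and 3 of all genes were as near as Col1a1. The nearest to Frzb were Actn3 of muscle (0.213), Col11a1 and Col1a2. Those nearest to Dkk1 were Notum (0.124), Sp7 and Wnt1, and to Dkk3 they were Dlx5 (0.162), Wnt10b and Ror2. For Dkk2 they were Lum (0.138), Pvalb and Tcf7, and for Sfrp2 Tcf7 (0.0742), Pvalb and Dpt. For Sfrp4 they were Pvalb (0.135), Ror2 and Dpt, and for Sfrp1 Fzd2 (0.0545), Bcl9 and Porcn. Sost had the most distant neighbors among the list genes, which were Comp (0.293), Fzd9 and Scx. No osteocyte marker was among them, but none was among the neighbors of any other member either. Of all genes, 44 were as near to Sost as Comp. The numbers of all genes as near as the first neighbor ran from 3 to 99.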

How the data were processed

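Poly(A) RNA of pooled condyles was sequenced in pairs of 150 bases, with 1 deposited sample per genotype, taken as 1 library. The authors deposited 1 value per gene and library, whose unit is not named and was read as FPKM because the values are whole fragments over gene length. The submitters' processing notes name FastQC 0.11.5, HISAT2 2.1.0, StringTie 1.3.3b, DESeq 1.28.0 and the build hg38, although the organism is mouse. The positions printed are those of the table, whose build is not given in the sources used here. Start and end match GENCODE M21 (GRCm38) for 589 genes alone, so they are not GRCm38 positions.

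Fragments were recovered with merged exon lengths of GENCODE M21 for 26652 genes. Genes were compared as log2 ratios of FPKM + 1 where the mean over the libraries was 1 FPKM or more, and the threshold was 2-fold. Folds are ratios of FPKM with no pseudocount. Recovery, intervals and calls were tested on simulated data that held counting error alone. Such data cannot check the calls against variation among mice. Versions used were scipy 1.17.1, pandas 2.3.3, numpy 2.4.6, matplotlib 3.10.9 and Python 3.11.15. The Kruskal-Wallis test of the study cannot be used with 1 library per genotype. The members, lists, thresholds and alternatives were chosen with earlier results of these data known. Genes named are the 9 members, the most abundant gene in WT of each Wnt list, Lrp4, Lrp5, Lrp6, Kremen1, Kremen2 and Axin2, Wnt genes at least 2-fold different from WT the same way in both mutant libraries, up to 3 of the most abundant genes of a cell type list, and the 3 list genes nearest to each member. Wnt9a, Wnt10b, Wnt11, Fzd9, Lgr6, Prg4, Cilp, the osteocyte genes Phex and Mepe, and the pairs of genes for ratios within a library were named outside this rule or after values were seen. So were Wnt4, Wnt16, Tcf7l2, Tle2, Myc, Vpreb1 and Myh4.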

Additional observations from a re-analysis of the deposited data

How the results depend on the processing

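No paired analysis was possible because each genotype has 1 deposited sample, and for the same reason no library could be left out. In all, 11 alternatives were run. All log2 differences of the 9 members from WT, and those between the mutant libraries, kept their sign under the 9 alternatives other than the thresholds. The other sign was found for 0 of 80 values in each of the 3 comparisons. A pseudocount or a filter on the mean cannot change a sign, so only the values under the 5 other scalings could have done so. The number of members at least 2-fold lower than WT in Dspp+/- was 4 to 8 of 9 against 6, except at a threshold of 4-fold, where it was 1 (Frzb). The share of all genes was 1.20% with a pseudocount of 5, where 4 members were counted, and 8.95% at 1.5-fold, where 8 were. It was 0.184% at 4-fold, against 2.86% with the main settings. The number in Dspp-/- was 2 with housekeeping scaling, 3 with scaling on the sum that leaves out globin, antibody and muscle genes, 4 at 1.5-fold and 0 at 4-fold, against 1. In the same order, the share of all genes was 1.63%, 2.58%, 8.21% and 0.0461%, against 1.37%. Sost was called in Dspp-/- under every alternative but the 4-fold threshold. The number at least 2-fold lower in Dspp+/- than in Dspp-/- was 2 with a pseudocount of 0.1 and under each of the 5 other scalings, 5 at 1.5-fold, and 0 with a pseudocount of 5 and at 4-fold, against 1. The share of all genes was 1.71% with a pseudocount of 0.1, 0.860% to 0.944% under the 5 scalings and 3.39% at 1.5-fold, against 0.852%. It was 0.276% with a pseudocount of 5 and 0.115% at 4-fold. Higher thresholds and a larger pseudocount lower such counts by construction, and the cause of the other moves was not tested. A mean of at least 5 FPKM left out Dkk2. Leaving globin, antibody and muscle genes out of the scaling moved the median of all genes by -0.16 in Dspp+/- and -0.14 in Dspp-/-. The median of the members ranged from -1.19 to -0.80 in Dspp+/- and from -0.68 to -0.44 in Dspp-/-. Dkk2 depended most on the pseudocount, with log2 differences in Dspp+/- from -1.87 to -0.37, as its level of 45 fragments there limits it.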
